A study of Mus musculus with 6 samples.

Results

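Array-CGH compared the genomic DNA of forestomach stroma from Tgfbr2 fspKO mice with DNA of epithelia from Tgfbr2 flox/flox mice. The results below concern 3 of the 6 arrays in the series, namely those whose labels give laser captured stroma as the test sample, with 1 array for each of 3 mice. The other 3 arrays hold epithelia of the same mice. They are used to show where the stroma differed and, in some alternatives, to estimate the spread.

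The test DNA came from Tgfbr2 fspKO mice of the C57Bl/6 strain, 5 weeks old and bearing forestomach squamous cell carcinoma (SCC), in which both Tgfbr2 alleles are floxed and Cre is driven by the promoter of FSP1 (S100a4). The reference DNA on every array came from epithelia of the normal forestomach of Tgfbr2 flox/flox mice, which carry the same floxed alleles and whose age is not given in the sources used here. Test DNA was labeled with Cy3 and reference DNA with Cy5 on all arrays, without a dye swap. Mice 1 and 2 were on slide 1 and mouse 3 was on slide 2.

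The type II receptor binds TGF-β and starts signaling through the Smad proteins, and its loss in fibroblasts alters the signals that stroma sends to the neighboring epithelium. In array-CGH, test and reference DNA compete for the same probes, so that the ratio of the dyes follows the relative number of DNA copies. A gain or loss in a fraction of the captured cells gives a ratio nearer to equality than the same change in all of them.

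Several features limit these samples as a model of Tgfbr2-deficient stroma. Cre acts in FSP1+ cells, a subset of the stromal fibroblasts, and the stroma was captured by its morphology, so that leukocytes, vessels and fibroblasts without recombination may be part of the DNA. The test and the reference differ in both genotype and tissue, and the 2 cannot be told apart. No control mouse was hybridized as a test sample, so a test of the ratio against 0 leaves out the spread between control mice. Whether the reference DNA was pooled, and whether it was the same preparation on each array, is not given in the sources used here.

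Each array held 42404 different probes with a median length of 60 bases, of which 40666 lay on chromosomes 1 to 19 and 1569 on chromosome X of the mm8 build. Neighboring probes were 21827 bp apart at the median. Values are log2 ratios of test over reference after the array median was subtracted, and stroma with less DNA than the reference at a probe has a ratio below 0. On this scale, 3 copies against 2 in all cells would give 0.585, and 1 copy against 2 would give -1. The probes carry positions without gene names and no gene table of the same build was used, so regions are given by position and no gene is named for them. Of the spots, 97.2%, 89.7% and 94.6% had a test signal well above background in mice 1, 2 and 3, and 77.9%, 82.3% and 95.3% had such a reference signal. A dim reference was thus more frequent on slide 1 than on slide 2. Precision is limited by the number of arrays.

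No whole autosome was gained or lost in the stroma to an extent that the test against 0 detected. The means of the 19 autosomes lay between -0.0205 on chromosome 11 and 0.0352 on chromosome 16. Chromosome X had a mean above 0 in each mouse that was well below the ratio of 3 copies against 2.

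By array, the autosomal means ran from -0.0249 to 0.0811 in mouse 1, from -0.0639 to 0.0259 in mouse 2 and from -0.0586 to 0.0486 in mouse 3. Chromosome 16 was the only autosome with 1 sign in all 3 mice, at 0.060, 0.026 and 0.019. In limma, the lowest adjusted p of an autosome was 0.8953, and 0 of 19 had an unadjusted p under 0.05. The 95% confidence intervals of the autosomes extended from -0.0685 at the lowest to 0.0832 at the highest, which is far from the ratio of a whole chromosome gained or lost in all cells.

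The mean of chromosome X was 0.16, 0.045 and 0.050 in mice 1, 2 and 3. Mouse 1 stood above the other mice, which were close to each other. Together they gave 0.085 ± 0.066 (SD, n = 3), with an adjusted p of 0.01722 in limma, and X was the 1 chromosome past 0.05 of the 20 tested (5.0%). Without mouse 1 the mean was 0.047 (adjusted p of 0.995), without mouse 2 it was 0.11 (adjusted p of 0.06544), and with the spread estimated over all 6 arrays the adjusted p was 0.9621. In the epithelia the X mean was 0.18, -0.18 and 0.095, and the difference of 0.053 between the tissues had an adjusted p of 0.5691.

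**Figure D1:**
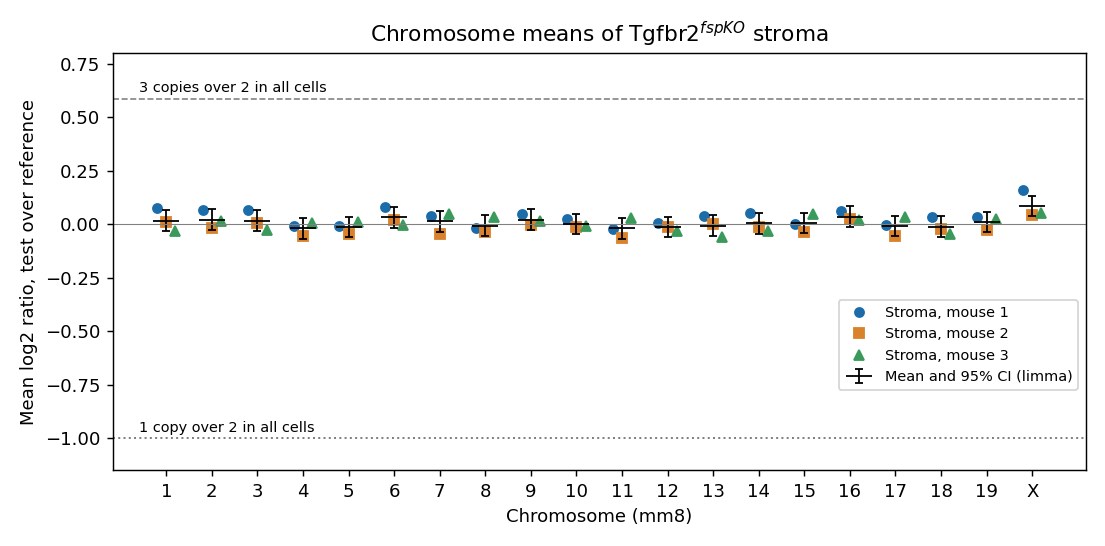
Mean log2 ratio of test over reference (vertical axis) for each mm8 chromosome (horizontal axis) in the stroma of mice 1, 2 and 3 (colored points), with the mean and its 95% confidence interval from limma in black and dashed lines at the ratios of 3 and of 1 copy over 2 in all cells. The autosomal means lie between -0.0205 and 0.0352, and the X mean of 0.085 lies above them.

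Among windows of 100 consecutive probes, 3 were higher than the reference in the stroma of all 3 mice and past the threshold. They were a neighboring pair on chromosome 2 and a window on chromosome 19. The windows were fixed by position, so that the ratios had no part in their choice, and 3 of 399 passed an adjusted p of 0.05 in limma (0.752%, 42 at an unadjusted p under 0.05). The test treated the 3 arrays as independent, although mice 1 and 2 shared a slide, with a Pearson's r of 0.718 across these windows.

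From 86779328 to 88994890 of chromosome 2 the means were 0.49, 0.21 and 0.28 in mice 1, 2 and 3 (mean 0.33 ± 0.15, SD, n = 3, adjusted p of 0.02277 in limma). The window before it, from 84642761 to 86759398, had 0.56, 0.15 and 0.27 (mean 0.32 ± 0.21, SD, n = 3, adjusted p of 0.038 in limma). From 11897926 to 13913235 of chromosome 19 the means were 0.52, 0.20 and 0.20 (mean 0.31 ± 0.18, SD, n = 3, adjusted p of 0.038 in limma). Mouse 1 was the highest of the 3 in each window, and mouse 2 never exceeded 0.21. In the epithelia, with reference DNA of the same kind, mouse 2 was at -0.54, -0.46 and -0.42 in these windows, while mice 1 and 3 were between 0.047 and 0.35. Ratios on the array with epithelia of mouse 2 varied most between neighboring probes. Its derivative log ratio SD was 0.835, against values from 0.395 to 0.488 on the other arrays. The differences between the tissues of 0.44, 0.41 and 0.23 had adjusted p-values of 0.341, 0.388 and 0.6665 in limma. In limma the count of windows was 0 without mouse 1 and without mouse 3 (8 and 89 unadjusted), and 5 without mouse 2. It was also 0 with normexp background correction, with outlier spots kept and with the spread of all 6 arrays (33, 38 and 9 unadjusted).

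A search for stretches with 1 sign in all 3 mice found 13, and only 1 of them was low. It lay on chromosome 1 and had a mean of -0.85, which is nearer to the ratio of 1 copy against 2 than to 0. The other 12 were higher than the reference and lay on 10 chromosomes, with means over the mice between 0.25 and 0.49. The ends of these stretches were chosen from the ratios by segmentation of the mean profile, which kept pieces of 3 probes or more whose mean was above 0.25 or below -0.25, and so they are described without a test.

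The low stretch held 19 probes from 69561599 to 71405535 of chromosome 1. In mice 1, 2 and 3 the mean of these probes was -0.77, -0.75 and -1.03, which gives -0.85 ± 0.16 (SD, n = 3). All 3 mice were low, and mouse 3, on the other slide, was the lowest. Within it, 17 of 19 probes were below 0 in every mouse, 10 passed the test for single probes described further on, and 16 had both signals well above background in every mouse. Over all probes, 3.24% passed that test, and 1.96% were called lower. The stretch was cut from the same ratios, so the first 2 counts are not independent of its choice. The probe means ranged from -2.43 to 0.38, with a median of -0.95.

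The low stretch began with a step between neighboring probes and ended more gradually. The last probe before it ended at 69422755 and had 0.46, 0.41 and 0.07 in mice 1, 2 and 3, whereas the first probe within it had -0.88, -0.73 and -1.60. The last probe within it had -0.46, -0.30 and -0.93, and the next one, which began at 71491366, was still below 0 with -0.32, -0.28 and -0.33. In the mean profile the stretch spanned 1.84 Mb. When each array was segmented alone, this was the 1 stretch called in all 3 mice, with 18 probes in common from 69561599 to 71334952 and a mean of -0.86, so that the far end differed by 1 probe between mice. With normexp background correction its mean was -0.65, a shift larger than the SD between mice.

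The epithelia of the same mice had -0.76, -1.19 and -0.79 over the same 19 probes, against reference DNA of the same kind. A window of 10 probes that was fixed by position and lies inside the stretch gives a test of the difference between the tissues, and that difference was -0.0011 (95% confidence interval from -0.36 to 0.35, adjusted p of 0.9987 in limma). The low ratio is thus not shown to be particular to the stroma.

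**Figure D2:**
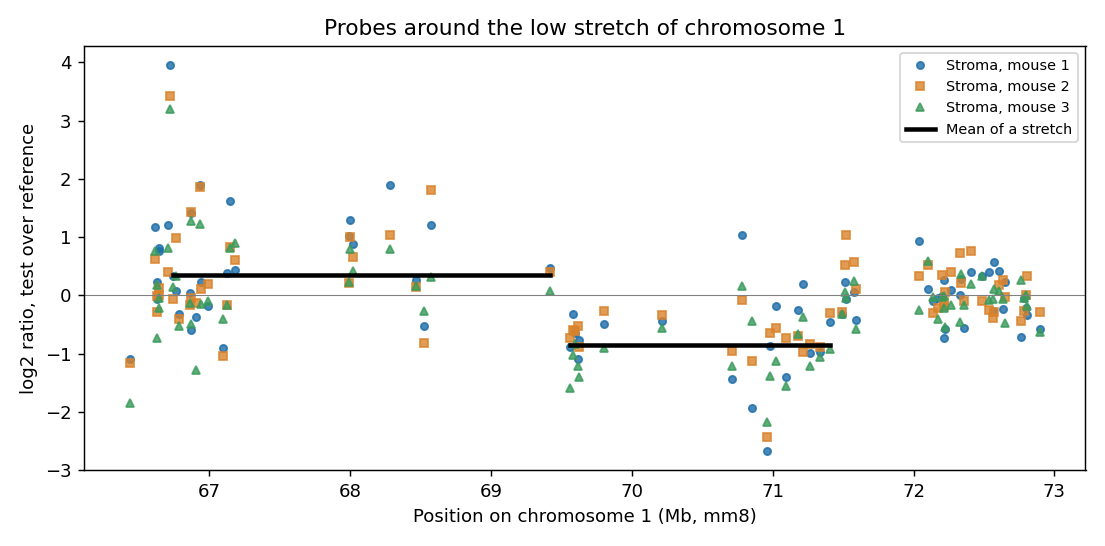
Log2 ratio of test over reference (vertical axis) of single probes against position on chromosome 1 in Mb of mm8 (horizontal axis) in the stroma of mice 1, 2 and 3, with black bars at the means of the stretches. The bar at -0.85 marks the 19 probes of the low stretch, and the bar before it marks the stretch with a mean of 0.35.

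Directly before the low stretch, 22 probes from 66745542 to 69422755 of chromosome 1 formed a higher stretch. Its means were 0.48, 0.38 and 0.18 in mice 1, 2 and 3 (mean 0.35 ± 0.15, SD, n = 3). The level thus stepped down by more than 1 on the log2 scale between neighboring probes in each mouse, if the means of the 2 stretches are compared. In the epithelia the same probes had 0.29, -0.80 and -0.11.

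The highest stretch, 42 probes from 109698455 to 111581277 of chromosome 2, had 0.86, 0.30 and 0.32 in mice 1, 2 and 3 (mean 0.49 ± 0.32, SD, n = 3). It was followed by 22 probes from 27256855 to 28158700 of chromosome 13, with 0.80, 0.32 and 0.27 (mean 0.47 ± 0.29, SD, n = 3). In these stretches mouse 1 was more than 0.4 above the other mice, whose values were close to each other. A different arrangement was found over 32 probes from 18975045 to 23439559 of chromosome 8, where the means were 0.46, 0.46 and 0.32 (mean 0.42 ± 0.081, SD, n = 3). This was the stretch with the smallest spread among those above 0, and mice 1 and 2 had nearly the same value. With normexp background correction its mean was 0.31.

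The stretch with the most probes, 213 from 85179900 to 89803763 of chromosome 2, spanned 4.62 Mb, contained the higher of the windows of 100 probes on that chromosome and overlapped the other. Its means were 0.60, 0.20 and 0.30 (mean 0.37 ± 0.21, SD, n = 3), and 133 of its probes were above 0 in all 3 mice while 11 were below 0 in all 3. On chromosome 9, 112 probes from 37519004 to 39851969 had 0.59, 0.18 and 0.23 (mean 0.33 ± 0.23, SD, n = 3). The order of the mice was the same in these stretches, with mouse 1 highest, mouse 3 next and mouse 2 lowest.

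On chromosome 1, 52 probes from 174819494 to 176743907 had 0.60, 0.14 and 0.25 (mean 0.33 ± 0.24, SD, n = 3). On chromosome 5, 54 probes from 87810273 to 89403280 had 0.53, 0.18 and 0.27 (mean 0.33 ± 0.18, SD, n = 3). The remaining 4 stretches, on chromosomes 6, 10, 17 and 19, had means between 0.25 and 0.31. Of these, the 75 probes from 17581997 to 22907306 of chromosome 17 lay just inside the limit of 0.25, and the 92 probes from 35890938 to 40274867 of the same chromosome lay just outside it, with a mean of 0.24.

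Together the 12 higher stretches held 909 probes, or 2.24% of the autosomal probes, and were between 0.902 and 5.33 Mb long. Their means ran from 0.39 to 0.86 in mouse 1, from 0.14 to 0.46 in mouse 2 and from 0.16 to 0.32 in mouse 3, and mouse 1 had the highest value in 12 of 12. In the epithelia, mouse 1 was above 0 in 12 of them and mouse 3 in 10, and mouse 2 was below 0 in 12, between -0.80 and -0.13. The array with epithelia of mouse 2 was the most variable between neighboring probes (derivative log ratio SD of 0.835), and the part of this in its signs was not tested. Without mouse 1 the search found 2 stretches, 1 higher and 1 lower. When each array was segmented alone, no higher stretch was called in all 3 mice.

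**Figure D3:**
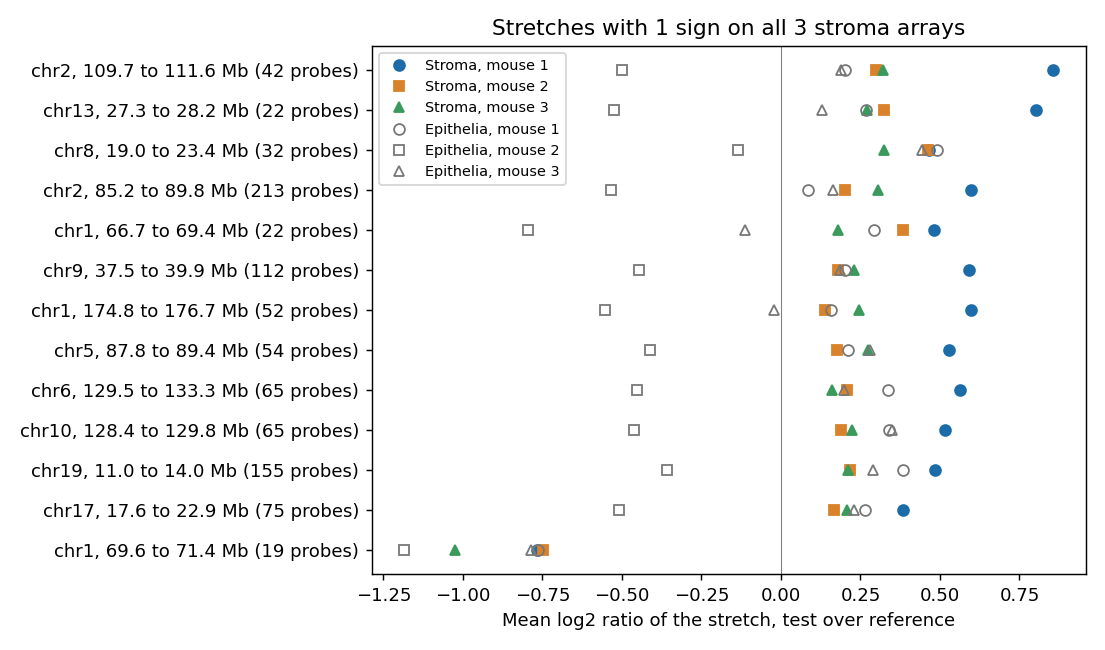
Mean log2 ratio of test over reference (horizontal axis) of the 13 stretches with 1 sign in all 3 stroma samples (vertical axis), for stroma (filled) and for epithelia of the same mice (open), all against reference DNA of the same kind. Among the stroma samples mouse 1 lies highest in the 12 higher stretches, and epithelia of mouse 2 lie below 0 in all 13.

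Segmented alone, the 3 mice differed in how many stretches they held. Mouse 1 had 31, of which 30 were higher, and they covered 6.39% of its autosomal probes. Mouse 2 had 11, of which 3 were higher and 8 lower, covering 1.29%, and mouse 3 had 3, of which 2 were higher, covering 0.998%. Thus 28, 9 and 1 of these stretches were called in no other stroma sample. A stretch not called in a mouse may still have the same sign there. For example, 129456316 to 133252642 of chromosome 6, also a higher stretch of the mean profile, was called in mouse 1 only. Its means were 0.56, 0.21 and 0.16 in mice 1, 2 and 3. The SD estimated from neighboring probes was 0.498, 0.404 and 0.425 in mice 1, 2 and 3.

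Some stretches called in the stroma of a single mouse were long or far from 0. A stretch of 382 probes on chromosome 16, from 45066625 to 88858185, had 0.27 in mouse 1, where mice 2 and 3 had 0.072 and 0.043, so all 3 were above 0. A short stretch of 7 probes on chromosome 8, from 96055292 to 96155417, had 1.23 in mouse 1, against 0.12 and 0.17 in mice 2 and 3. Both were above 0 in each mouse and were called as a stretch only in mouse 1. Epithelia of mice 1, 2 and 3 had 0.78, -0.17 and 0.81 over the stretch of chromosome 8. Over the stretch of chromosome 16 they had 0.21, -0.26 and 0.16.

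In mouse 2, the lowest of its own stretches was formed by 14 probes from 51950999 to 52188665 of chromosome 6, with -0.62, against -0.23 in mouse 1 and -0.24 in mouse 3. Next came 26 probes from 37421848 to 37881468 of chromosome 18, with -0.54 in mouse 2 and -0.32 and -0.28 in mice 1 and 3. The 1 stretch found in mouse 3 alone, 160 probes from 78437086 to 81038690 of chromosome 10, had 0.33 there, with 0.094 in mouse 1 and -0.15 in mouse 2. The first pair was low in all 3 mice with mouse 2 lowest, whereas the stretch of chromosome 10 had opposite signs in mice 2 and 3, which were on different slides. Epithelia of mice 1, 2 and 3 had -0.65, 0.84 and -0.52 over the stretch of chromosome 6. Over that of chromosome 18 they had -0.098, 0.11 and -0.036, and over that of chromosome 10 -0.026, 0.64 and 0.11. The stretches named here were called by segmentation in the stroma of 1 mouse each and were chosen after their values were seen.

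Windows of 10 consecutive probes, with a median span of 305 kb, showed both higher and lower regions of the stromal genome. The lowest lay in the low stretch of chromosome 1, and the highest on chromosome 14. In limma, 290 of 4059 windows were past an adjusted p of 0.05 (7.14%), of which 179 were higher (4.41%) and 111 lower (2.73%). At an unadjusted p under 0.05 there were 941.

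The lowest window, from 69585117 to 70962987 of chromosome 1, had -0.88, -0.78 and -0.96 in mice 1, 2 and 3 (mean -0.87 ± 0.089, SD, n = 3, adjusted p of 1.037e-07 in limma). The window after it, from 70980852 to 71512388, had -0.50, -0.54 and -0.86 (mean -0.63 ± 0.19, SD, n = 3, adjusted p of 0.000124 in limma). Mouse 3 was the lowest of the mice in both windows.

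Outside the low stretch, the lowest window covered 40.3 kb of chromosome 2, from 74470806 to 74511106. It had -0.63, -0.57 and -0.39 in mice 1, 2 and 3 (mean -0.53 ± 0.12, SD, n = 3, adjusted p of 0.0006481 in limma). The 3 mice were all low there, while the epithelia had -0.88, 0.93 and -0.66, with mouse 2 opposite to the others. The last of the 6 lowest windows were 76633718 to 76748700 of chromosome 15 with -0.79, -0.32 and -0.44, 37610819 to 37767171 of chromosome 18 with -0.38, -0.62 and -0.45, and 44113751 to 44241193 of chromosome 7 with -0.54, -0.61 and -0.29. Their means were -0.52, -0.48 and -0.48, and their adjusted p-values in limma were 0.001267, 0.00128 and 0.001492. The window of chromosome 18 lies within the stretch that segmentation called in mouse 2 only. With normexp the mean of the window of chromosome 7 was -0.26 and that of the window from 70980852 of chromosome 1 was -0.40, both still past the threshold (adjusted p of 0.04301 and 0.02132 in limma).

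The highest window, 152 kb from 49069823 to 49221944 of chromosome 14, had 0.95, 0.38 and 0.65 in mice 1, 2 and 3 (mean 0.66 ± 0.28, SD, n = 3, adjusted p of 0.000124 in limma). The window from 19168077 to 19446769 of chromosome 8, inside the higher stretch there, had 0.41, 0.77 and 0.54 (mean 0.58 ± 0.18, SD, n = 3, adjusted p of 0.000365 in limma). It was the 1 window among the 6 highest in which mouse 2 and not mouse 1 had the highest value. Both of the highest windows named on chromosome 2 lay inside the stretch of 213 probes there. From 86779328 to 86893976 the values were 0.98, 0.35 and 0.42, and from 88698186 to 88857800 they were 0.95, 0.32 and 0.45, with an adjusted p of 0.0009086 for each in limma.

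The remaining ones of the 6 highest were on chromosome 1, from 66619900 to 66790733, with 0.82, 0.48 and 0.39, and on chromosome 7, from 102858024 to 103085754, with 0.90, 0.40 and 0.39. Their means were 0.56 each, with adjusted p-values of 0.0006481 and 0.0009086 in limma. The window of chromosome 1 contains the probe with the highest ratio of all, whose reference signal was dim. When only probes with both signals well above background in all 3 mice were used, the mean of this window was 0.26 with an adjusted p of 0.06047, and with normexp it was 0.35 (adjusted p of 0.0242 in limma).

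The higher and the lower windows differed in how the mice contributed. In the 179 higher windows the median was 0.58 in mouse 1 and 0.26 in each of mice 2 and 3, and mouse 1 was the highest in 161 of them. In the 111 lower windows the medians were -0.38, -0.34 and -0.26, and mouse 1 was the lowest in 52. Over all 4059 windows mouse 1 was the highest in 1687 and the lowest in 1073. Nearly all called windows had 1 sign in all 3 mice, namely 178 of the higher and 110 of the lower, beside 1801 of all 4059. The test against 0 itself favors windows with 1 sign, so these counts follow largely from the calls.

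Some of the called windows lay beside each other. A neighboring window was called with the same sign for 72 of the 179 higher and for 15 of the 111 lower windows. Of all windows, 4.41% were called higher and 2.73% lower, and the contrast between the directions was not tested. Inside the higher and lower stretches lay 49 of the higher windows (27.4%) and 1 of the lower, beside 81 of all 4059 windows (2.00%), and both counts rest on the same ratios. The median span was 333 kb for higher and 243 kb for lower windows, against 305 kb for all.

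In the epithelia, the 179 windows that were higher in the stroma had a ratio above 0 in 151 for mouse 1, in 29 for mouse 2 and in 162 for mouse 3. For the 111 lower windows these counts were 36, 69 and 19, and over all 4059 windows 1973, 2067 and 2013. Since both tissues were set against reference DNA of the same kind, no overlap was computed. For the 12 named windows the adjusted p of the difference between the tissues lay between 0.5783 and 0.9987 in limma, and none is shown to be particular to the stroma.

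The number of called windows depended on single mice and on how the spread was estimated. In limma it was 3 without mouse 1, 149 without mouse 2 (124 higher and 25 lower), 0 without mouse 3 and 0 with the spread estimated over all 6 arrays, with 978 and 344 windows at an unadjusted p under 0.05 in the last 2 of these. All 12 named windows passed when the spread came from 5 arrays, without epithelia of mouse 2, whose ratios varied most between neighboring probes, an analysis chosen after seeing the data.

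Single probes past the threshold were scattered over all autosomes. In limma, 1374 of 42404 probes were past an adjusted p of 0.05 (3.24%), with 541 higher (1.28%) and 833 lower (1.96%), and 11046 had an unadjusted p under 0.05. Of these, 1316 were autosomal, and by chromosome the share of called probes ran from 2.33% on chromosome 15 to 3.88% on chromosome 17. The median ratio was 0.96 for the autosomal probes called higher and -0.91 for those called lower.

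Most called probes stood alone. Among the autosomal probes called with 1 sign in all 3 mice, 1204 had no called neighbor of the same sign, 52 runs held 2 probes and 2 runs held 3, and 0 runs were longer. Among all autosomal probes, called or not, 40 had a ratio below -1 in all 3 mice and 24 a ratio above 1 in all 3. The count of called probes was 9 without mouse 1, 4 without mouse 3 and 2 with the spread estimated over all 6 arrays. Without mouse 2 it was 2247, and the balance turned, with 1366 higher and 881 lower.

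Both runs of 3 called probes were lower in the stroma. One, of 128 kb, lay within the low stretch of chromosome 1 from 70852938 to 70980911 and had -1.82, -1.40 and -1.34 in mice 1, 2 and 3 (mean -1.52 ± 0.26, SD, n = 3). The other, of 15.3 kb from 67725887 to 67741223 of chromosome 11, had -1.01, -1.01 and -1.0 (mean -1.01 ± 0.0045, SD, n = 3). The 3 mice were nearly equal in the run of chromosome 11, but its probes were chosen by a test that favors a small spread between mice. With normexp, with loess and among probes well above background, the mean of this run moved by more than that SD. The epithelia had -0.84, -0.66 and -1.01 over the first run and 0.30, -0.24 and -0.73 over the second, and these differences between the tissues were not tested, since the runs were chosen from the stromal ratios.

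The brightness of the spots moved with the direction of the calls. Both channels were well above background on all 3 arrays for 76.8% of the autosomal probes, for 90.1% of those called lower and for 49.9% of those called higher. Of the 507 autosomal probes called higher, 254 had a reference signal not well above background on at least 1 array and 59 had such a test signal. Of the 809 called lower, these numbers were 59 and 75. The part of dim reference signals in the higher ratios was not tested.

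Among the highest probes, several had a dim reference. A_53_P157828, at 66726250 of chromosome 1, had 3.95, 3.42 and 3.19 in mice 1, 2 and 3, and its reference signal was well above background on 0 of the 3 arrays. Its test signal was at least 5.39-fold higher than the reference, counting the dim channel at no less than the lowest signal well above background. For this bound, the processed signals were first normalized by loess within arrays and by quantiles of the mean signal between arrays. It compares dyes, is open to dye bias and holds for these normalized signals only. By the same bound, A_53_P134446 at 73647894 of chromosome 17, with 2.15, 1.85 and 2.23, was at least 1.86-fold higher. A_53_P179220 at 93452816 of that chromosome, with 2.53, 1.08 and 1.89, was at least 2.10-fold higher. These were the 3 probes among the 10 highest without a measured reference on any array, and their adjusted p-values in limma were 0.0001243, 0.001899 and 0.02994. With normexp, which adds 50 to each signal and so shrinks the ratios of dim spots, their mean log2 ratios were 1.89, 0.88 and 0.90, against 3.52, 2.08 and 1.83. These lie below the bounds from the normalized signals, and all 3 probes were past the threshold.

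The other 7 of the 10 highest had a reference signal well above background on 1 of 3 arrays each, so that their ratios on the other arrays rest on a dim reference. A_53_P124434, at 6161854 of chromosome 16, had 2.25, 2.47 and 2.49 (adjusted p of 0.000664 in limma). A_53_P103858, at 90091242 of chromosome 1, had 2.17, 1.86 and 2.48 (adjusted p of 0.001899 in limma). No mouse was near 0 at either of these probes. A_53_P116406, at 117262968 of chromosome 8, had 1.34, 4.06 and 1.45, so that its mean of 2.28 rested on mouse 2. A_53_P156783, at 116956807 of chromosome 3, had 2.18, 0.17 and 2.78, with mouse 2 close to 0, and its adjusted p was 0.04516 in limma. With normexp the means of A_53_P103858 and A_53_P116406 were 1.34 and 1.40, both past the threshold.

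The lowest probes were more often bright in both channels, and 7 of the 10 had both signals well above background in every mouse. A_53_P158444, at 5773742 of chromosome 5, had -2.67, -2.88 and -3.15 (adjusted p of 0.0002112 in limma), while the epithelia had -0.90, -0.39 and 0.79. The difference of -2.74 between the tissues had an adjusted p of 0.2166, although the samples did not overlap. A_53_P164074, at 70962928 in the low stretch of chromosome 1, had -2.67, -2.43 and -2.18 (mean -2.43 ± 0.25, SD, n = 3, adjusted p of 0.0006754 in limma).

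The other 5 of these 7 probes differed in how close the mice were. A_53_P100851, at 83245784 of chromosome 17, had -1.79, -0.68 and -2.03, with mouse 2 nearer to 0 than the others (adjusted p of 0.03349 in limma). A_53_P133441, at 157861042 of chromosome 3, had -2.42, -1.52 and -1.71, and A_53_P170024, at 107256342 of chromosome 8, had -1.91, -1.22 and -1.44. A_53_P153432, at 82191618 of chromosome 1, had -1.32, -1.72 and -1.35, and A_53_P125886, at 4995193 of chromosome 11, had -1.58, -1.23 and -1.56. The adjusted p-values in limma were 0.01453 for the probe of chromosome 3 and 0.02093 for those of chromosomes 8, 1 and 11, and each of these 4 probes was below -1 in all 3 mice. With normexp the mean of A_53_P133441 was -1.22, against -1.88, and it was past the threshold. With the spread estimated over all 6 arrays, 2 of the 20 named probes were past the threshold, and without mouse 1 or mouse 3 there were 6 and 4.

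The 3 stromal profiles resembled each other more from probe to probe than over long distances, except for the pair on 1 slide. Across autosomal probes, Pearson's r was 0.442 for mice 1 and 2 (n = 40578), 0.422 for mice 1 and 3 (n = 40482) and 0.363 for mice 2 and 3 (n = 40554). Across the 4059 windows of 10 probes it was 0.563, 0.380 and 0.254, and across the 399 windows of 100 probes 0.718, 0.0959 and -0.171. All pairs share reference DNA of the same kind, mice 1 and 2 also share a slide, and probes and windows are not independent replicates.

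The ratio also moved with how widely the probes of a window were spaced. Across the 4059 windows of 10 probes, Spearman's rho between the ratio and the span of the window was 0.243 in mouse 1, 0.247 in mouse 2 and -0.168 in mouse 3. The sign was thus positive on slide 1 and negative on slide 2. The part of this relation in the higher windows was not tested.

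Against the epithelia of the same mice, the stroma differed at 7 probes, a window of 10 probes and 3 chromosomes, and at the probes and the window it was the epithelial ratio that lay farther from 0. The difference had an adjusted p under 0.05 in limma at 7 of 42404 probes (0.0165%, 2841 at an unadjusted p under 0.05), all higher in the stroma. By the same test, 1 of 4059 windows of 10 probes differed (0.0246%, 336 unadjusted) and 0 of 399 windows of 100 probes (0.0%, 48 unadjusted). It was passed by 3 of the 20 chromosomes (15.0%), with chromosomes 1 and 18 higher (10%) and chromosome 8 lower (5.0%) in the stroma.

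At A_53_P171953, at 54703687 of chromosome 9, the stroma had 0.88, 0.92 and 0.70 and the epithelia -4.32, -2.45 and -3.67 (difference 4.32, adjusted p of 0.01372 in limma). Its test signal was well above background in the epithelia of 2 of 3 mice, and with normexp the difference was 2.97 (adjusted p of 0.002485 in limma). At A_53_P125783, at 44969890 of the same chromosome, the stroma had 0.59, 0.85 and 1.24 and the epithelia -2.17, -1.78 and -2.28 (difference 2.97, adjusted p of 0.02404 in limma). These 2 were the probes of the 7 at which the stroma was also past the threshold against 0, with adjusted p-values of 0.04093 and 0.04258. In the window from 88759685 to 90703248 of chromosome 4 the stroma had 0.23, 0.03 and -0.17 and the epithelia -1.85, -1.92 and -1.61 (difference 1.83, adjusted p of 0.001224 in limma). The stroma of the 3 mice lay on either side of 0 there. Without mouse 1 or mouse 3, or with the slide as a block, 0 of the 7 probes were past the threshold in limma (1854, 2580 and 2352 of all probes unadjusted), and without mouse 3 the adjusted p of the window was 0.09595. The difference of the window was 0.96 (adjusted p of 0.244 in limma) among probes well above background and 1.06 (adjusted p of 0.00542 in limma) with normexp, and without mouse 2 there were 4 windows. That filter dropped A_53_P119457 and A_53_P122639, whose test signal was well above background in the epithelia of 1 of 3 mice. Since the epithelial signal itself had a part in which probes stayed, the value of 0.96 does not decide whether the tissues differ there.

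The mean of chromosome 8 was -0.020, -0.035 and 0.033 in the stroma and 0.24, 0.50 and 0.29 in the epithelia (difference -0.35, adjusted p of 0.0008898 in limma). For chromosome 1 the stroma had 0.073, 0.011 and -0.035 and the epithelia -0.10, -0.13 and -0.15 (difference 0.15, adjusted p of 0.03034 in limma). For chromosome 18 the stroma had 0.032, -0.023 and -0.044 and the epithelia -0.13, -0.12 and -0.16 (difference 0.12, adjusted p of 0.04587 in limma). The tissues did not overlap for any of these chromosomes, and the stroma lay near 0 in each. The adjusted p of chromosome 18 was 0.07411 with the mouse as a replicate block and 0.07358 with the slide as a block. Without mouse 1 the adjusted p of chromosomes 1, 8 and 18 was 0.236, 0.1071 and 0.3039, without mouse 3 it was 0.3577 for each of chromosomes 1 and 18, and without mouse 2 there were 7 chromosomes past 0.05.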

How the data were processed

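The deposited intensity values are the processed signals of each channel, which the authors obtained with Agilent Feature Extraction 10.7.1.1 after subtracting background and a spatial trend and scaling the dyes linearly. Log10 values were deposited too, as ratios of reference over test and served as an alternative with the sign turned. Positions are those of mm8 in the files, and 169 probes without a position entered only the tests over all probes. A table of another build, GRCm38, was not used for positions.

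Spots marked as outliers (119, 36 and 147 in stroma of mice 1, 2 and 3) were left out. The log2 ratio of processed test over processed reference signal was averaged per probe and centered on the array median. On the 3 stroma arrays alone, limma 3.58.1 in R 4.3.3 tested probes, windows and chromosome means against 0, with two-sided p-values and Benjamini-Hochberg adjustment over all features of a kind. Differences from the epithelia were fitted over 6 arrays. Stretches came from penalized least-squares segmentation of the mean profile, with a penalty of 3 times the log number of probes times the variance, written in Python 3.11.15 (numba 0.67.0, numpy 2.4.6 and pandas 2.3.3). The limma fit and the segmentation were tried on simulated data with independent noise at each probe. That noise lacks the correlation between mice and the relation to probe spacing found on these arrays. The simulations therefore cannot give the rate of false calls here. Correlations used scipy 1.17.1, and plots matplotlib 3.10.9.

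Named were the 10 highest and 10 lowest autosomal probes past the threshold with 1 sign in all mice, up to 10 runs of 3 or more probes, up to 6 windows each way, up to 8 stretches each way and all chromosomes. Members and lists were chosen with earlier results of these data known. Stroma and epithelia with the same mouse label came from the same animal, and the mouse served as a block in an alternative. Differences of 100-probe windows and of chromosome means were added after seeing the data. The robust and trend setting of limma used the mean log2 signal as covariate, after a version with the mean ratio had been seen, and both are given.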

Additional observations from a re-analysis of the deposited data

Results flagged for a closer look

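The difference between stroma and epithelia of the same mice was past an adjusted p of 0.05 in limma at 7 probes, each higher in the stroma. Of these, 3 were on chromosome 4, with differences on the log2 scale of 3.62 at A_53_P131690, 3.33 at A_53_P119457 and 4.69 at A_53_P122639. Another 2 were on chromosome 9, with 4.32 at A_53_P171953 and 2.97 at A_53_P125783, and 2 on chromosome 13, with 3.59 at A_53_P107603 and 3.85 at A_53_P119493. In the epithelia, the test signal was well above background in 3 of 3 mice at A_53_P131690 and A_53_P125783, in 2 at A_53_P171953 and A_53_P107603 and in 1 at A_53_P119457, A_53_P122639 and A_53_P119493. With normexp the difference was 2.79 at A_53_P122639 and still past the threshold. It was no longer past it at A_53_P119457 with 1.44 (adjusted p of 0.2681 in limma), at A_53_P107603 with 2.33 (0.05484) and at A_53_P119493 with 1.93 (0.1337). The window of 10 probes that begins at 88759685 of chromosome 4 and holds the first 3 of these probes differed by 1.83. By chromosome, the difference was 0.15 for chromosome 1, 0.12 for chromosome 18 and -0.35 for chromosome 8.

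Among the 10 highest and 10 lowest probes of the stroma, there was a pair at which every stroma sample had the opposite sign to every epithelial sample, and the difference was not past the threshold. It was 2.40 at A_53_P112779, at 19848464 of chromosome 10 (adjusted p of 0.736 in limma), where the stroma had 3.19, 0.95 and 1.38 and the epithelia -1.09, -0.50 and -0.09. The reference signal of this probe was well above background on 1 of the 3 stroma arrays. It was -2.02 at A_53_P125886, at 4995193 of chromosome 11 (adjusted p of 0.2166 in limma), where the epithelia had 0.75, 0.56 and 0.38.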

How the results depend on the processing

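The series table, autosomal centering, loess and keeping outlier spots left the counts of probes and of windows of 10 probes within 1.5 times of 1374 and 290, and all 13 stretch means kept their sign under every alternative for the signal and without any 1 mouse. Signal over background limits the ratios of dim probes. For the changes below, the cause was not tested unless fewer arrays or features are named.

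Normexp gave 5222 probes, 191 windows of 10 (97 higher and 94 lower, against 179 and 111), 0 windows of 100 and 4 probes for the difference between tissues. Probes well above background gave 5523 probes, 531 windows of 10 (259 higher and 272 lower) and 11 windows of 100, and for the difference 2 probes, 0 windows of 10, 1 window of 100 and 6 chromosomes. Lower ones were 4 of these 11 windows of 100. For the difference, this filter also dropped probes with a dim test signal in the epithelia, so that signal had a part in those counts. The series table gave 12 windows of 100 and loess 13, with 1 lower in each, and outlier spots kept 0. Loess gave 5 chromosomes for the difference.

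With the spread of all 6 arrays, limma gave 2 probes, 0 windows of 10, 0 windows of 100 and 0 chromosomes, with 344 windows of 10 at an unadjusted p under 0.05. With 5 arrays, without epithelia of mouse 2, chosen after seeing the data, it gave 27 probes, 281 windows of 10 and 6 windows of 100 (1 lower). Robust and trend settings gave 6020 probes, 492 windows of 10, 11 windows of 100 (2 lower) and 0 chromosomes. With the trend on the mean ratio, chosen after seeing the data, they gave 1694 probes (0 higher and 1694 lower), 142 windows of 10 (0 higher and 142 lower), 0 windows of 100 and 0 chromosomes. The methods' t-test gave 0 of each after Benjamini-Hochberg, and at their threshold 5950 probes, 454 windows of 10, 24 windows of 100 and 0 chromosomes. Windows of 5 and of 20 probes gave 602 and 69.

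Leaving out each mouse in turn, with fewer arrays, the counts ran from 4 to 2247 for probes (1366 higher and 881 lower without mouse 2), from 0 to 149 for windows of 10, from 0 to 5 for windows of 100, from 0 to 1 for chromosomes and from 2 to 16 for stretches. For the difference they ran from 0 to 9, 0 to 4, 0 to 10 and 0 to 7 for probes, both kinds of window and chromosomes. The mean of X, 0.085, ran from 0.047 to 0.11 and lost its call without mouse 1 and without mouse 2. It kept its value and lost its call with the spread of all 6 arrays (adjusted p of 0.9621), with robust and trend settings (0.9311, or 0.9535 on the mean ratio) and in the methods' t-test.

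The number of stretches was 6 with a doubled penalty, 1 with a mean beyond 0.5 and 1 with arrays segmented one by one. A second low stretch was found with normexp (10 stretches, 8 higher and 2 lower) and without mouse 2 (16 stretches, 14 higher and 2 lower). With the mouse as a replicate block, the difference gave 8 probes, 1 window of 10, 0 windows of 100 and 2 chromosomes, and chromosome 18 was the call that was lost. With the slide as a block it gave 0 probes, 1 window of 10 and 2 chromosomes. The slide as a random block (duplicateCorrelation) could not be estimated with 3 arrays and was not run. No named result changed its sign while called, and the signs of the other called features were not compared between settings.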
